A study of Mus musculus with 6 samples.

Results

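FOXC2 binding was examined around 6 genes of cholesterol metabolism in mouse podocytes, the cells that cover the glomerular capillaries of the kidney. Hmgcs1 codes for an enzyme of cholesterol synthesis. Srebf1, Srebf2 and Insig1 code for the sterol-sensing machinery, and Abca1 and Scarb1 code for transporters of cholesterol. FOXC2 is a forkhead transcription factor, and its genomic binding was mapped by ChIP-seq, in which DNA bound to FOXC2 is pulled down with an antibody and sequenced. The peaks were chosen by position. A peak was a member if its nearest base was no more than 50 kb from where 1 of the 6 gene records begins in GENCODE M21 on GRCm38. By that rule, 28 of the 41075 PBS peaks and 33 of the 40067 ADR peaks were members. Merging peaks that shared at least 1 bp gave 38 sites of the 53255 in both lists. The genes themselves were selected on earlier results of the same 2 lists, so their peak numbers are given as a description.

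All mice carried a Cre recombinase active in podocytes and the mT/mG reporter, which turns on a green membrane protein in cells where Cre has acted, and podocytes were sorted on that reporter. The control mice received phosphate-buffered saline (PBS). The treated mice received Adriamycin (ADR), an anthracycline that injures podocytes, at 18 mg/kg on days 0 and 7, and cells were collected on day 9. There were 3 samples per condition, and 1 peak list for each condition, described as pooled, was deposited, so the values carry no replicate error and conditions could not be tested against each other. Each peak carries its fold enrichment over the local control background and the −log10 of its q value. The lists are described as pooled, but every peak name in them carries the label of a single sample, so whether a fold and q rest on 3 samples or on 1 could not be settled from the files. The read depth was not in the files.

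Podocyte marker genes (Nphs1, Podxl, Synpo and Wt1) had 54 PBS and 53 ADR peaks within 50 kb of their starts. Those of the proximal tubule had 15 and 26, 4 and 13 of them at Slc34a1, and those of endothelial cells had 12 and 10. Peaks report binding and not expression, and the part of other cells in the values below was not tested.

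Cells sense sterols in the endoplasmic reticulum. When sterols are scarce, the SREBP proteins made from Srebf1 and Srebf2 are cut free from the membrane, enter the nucleus and bind sterol regulatory elements in genes of cholesterol and fatty acid synthesis, often beside the CCAAT-binding factor NF-Y, while INSIG1 holds the precursors back when sterols are plentiful. When sterols are in excess, the LXR receptors induce export genes such as Abca1, and lipid accumulation in podocytes is known from several glomerular diseases.

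The sequences shown are those on which the description turns. They include sites at gene starts, some of which hold the sterol element or the E-box. The others are the sites with the highest fold of Srebf2, Insig1 and Abca1, or with the highest fold among sites of 1 list alone. All are from the GRCm38.p6 reference, 5′ to 3′ on the strand of the gene named, with annotated UTR left out. Capitals mark matches on either strand to 5 motifs. These were the forkhead motif (ACAAACA or ACAAATA or ATAAACA or ATAAATA, or any of these with G as its first base), the sterol element TCACNCCAC, NF-Y CCAAT, the E-box CACGTG and a WT1 motif. The WT1 motif is GNGGGGGAG or GNGGGGGCG or GNGTGGGAG or GNGTGGGCG.
Hmgcs1 start, both lists, chr13:119690008-119690307, plus strand: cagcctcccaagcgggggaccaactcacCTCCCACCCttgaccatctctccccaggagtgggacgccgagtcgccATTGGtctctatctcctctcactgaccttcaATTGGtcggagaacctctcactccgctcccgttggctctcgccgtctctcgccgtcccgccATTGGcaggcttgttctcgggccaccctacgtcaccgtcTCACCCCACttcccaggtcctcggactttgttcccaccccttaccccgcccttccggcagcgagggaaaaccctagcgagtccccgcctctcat
Srebf1 first start, PBS only, chr11:60222846-60223046, minus strand: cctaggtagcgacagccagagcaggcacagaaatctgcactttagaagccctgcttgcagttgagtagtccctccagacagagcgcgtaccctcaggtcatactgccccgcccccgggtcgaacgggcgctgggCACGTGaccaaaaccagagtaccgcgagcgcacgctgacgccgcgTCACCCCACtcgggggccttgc
Srebf1 start 12.1 kb into the gene, ADR only, chr11:60210466-60210654, minus strand: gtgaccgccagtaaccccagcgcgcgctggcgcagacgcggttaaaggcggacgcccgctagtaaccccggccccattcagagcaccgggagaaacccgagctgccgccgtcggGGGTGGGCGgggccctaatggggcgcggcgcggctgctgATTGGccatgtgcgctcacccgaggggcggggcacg
Srebf1 strongest ADR-only site, in an intron of Tom1l2, chr11:60264907-60265107, minus strand: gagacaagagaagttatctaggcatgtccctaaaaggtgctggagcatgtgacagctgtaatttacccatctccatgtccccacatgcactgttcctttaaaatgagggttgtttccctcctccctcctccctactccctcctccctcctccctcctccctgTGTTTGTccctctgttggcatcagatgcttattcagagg
Srebf2 intron, both lists, chr15:82167248-82167448, plus strand: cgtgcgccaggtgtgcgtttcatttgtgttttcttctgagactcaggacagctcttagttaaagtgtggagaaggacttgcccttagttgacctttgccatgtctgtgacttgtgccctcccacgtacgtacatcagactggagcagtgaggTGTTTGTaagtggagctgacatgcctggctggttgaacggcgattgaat
Insig1 intron, both lists, chr5:28071905-28072105, plus strand: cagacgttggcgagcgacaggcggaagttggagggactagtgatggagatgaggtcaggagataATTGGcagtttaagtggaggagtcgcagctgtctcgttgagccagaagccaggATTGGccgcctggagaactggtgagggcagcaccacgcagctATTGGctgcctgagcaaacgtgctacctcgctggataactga
Abca1 start, both lists, chr4:53159946-53160146, minus strand: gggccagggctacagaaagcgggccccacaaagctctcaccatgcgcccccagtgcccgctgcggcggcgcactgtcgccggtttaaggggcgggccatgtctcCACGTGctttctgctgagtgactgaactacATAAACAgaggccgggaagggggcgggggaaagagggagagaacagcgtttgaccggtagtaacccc
Abca1 intron, both lists, chr4:53111867-53112067, minus strand: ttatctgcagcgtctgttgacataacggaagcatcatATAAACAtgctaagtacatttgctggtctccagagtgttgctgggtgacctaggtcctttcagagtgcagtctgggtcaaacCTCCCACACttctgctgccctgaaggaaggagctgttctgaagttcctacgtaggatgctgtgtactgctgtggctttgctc
Abca1 upstream, strongest PBS-only site, chr4:53196090-53196290, minus strand: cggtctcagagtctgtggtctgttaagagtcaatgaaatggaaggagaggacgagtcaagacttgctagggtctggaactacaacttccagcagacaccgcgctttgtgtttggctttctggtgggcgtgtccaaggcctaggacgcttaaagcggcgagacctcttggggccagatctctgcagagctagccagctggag
Scarb1 upstream of the start, both lists, chr5:125341095-125341188, minus strand: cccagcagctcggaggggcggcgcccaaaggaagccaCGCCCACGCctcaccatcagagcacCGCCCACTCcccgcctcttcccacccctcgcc

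FOXC2 peaks lay near the starts of all 6 genes. In PBS, 6 of the 6 had a peak within 1 kb of the start, and in ADR 5 of the 6 had one, the exception being Srebf1. Over all protein-coding genes the shares were 48.3% in PBS and 45.4% in ADR. Srebf1 and Srebf2 had more ADR than PBS peaks, Scarb1 had fewer, and Hmgcs1, Insig1 and Abca1 had the same number in both. Of the 16880 coding genes with any peak in the window, 27.2% had more ADR peaks and 44.1% had fewer. Of all 21938 coding genes, 49 (0.223%) had at least 7 more ADR than PBS peaks, as Srebf1 did, and 148 (0.675%) had at least 7 fewer.

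The share of member sites in both lists was close to that of all sites. Of the 38 member sites, 19 were in both lists, 7 in PBS only and 12 in ADR only. The 19 make 50.0% (95% Wilson interval 34.8 to 65.2), against 50.1% of all sites. Intervals here cover counting error only. Of the 28 member PBS peaks, 7 overlapped no ADR peak, and 33.1% of the whole PBS list did not. Of the 33 member ADR peaks, 12 overlapped no PBS peak, and 32.3% of the whole ADR list did not. Srebf1 held 10 of the 12 ADR-only sites but 1 of the 7 PBS-only sites. Leaving Srebf1 out, 14 of 16 ADR peaks (87.5%, 64.0 to 96.5) overlapped a PBS peak. At Srebf1, 7 of 17 did (41.2%, 21.6 to 64.0). Srebf1 was set apart after the data were seen, so these shares describe the split and do not test it. Their intervals also treat neighbouring peaks of the same window as independent.

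**Figure D1:**
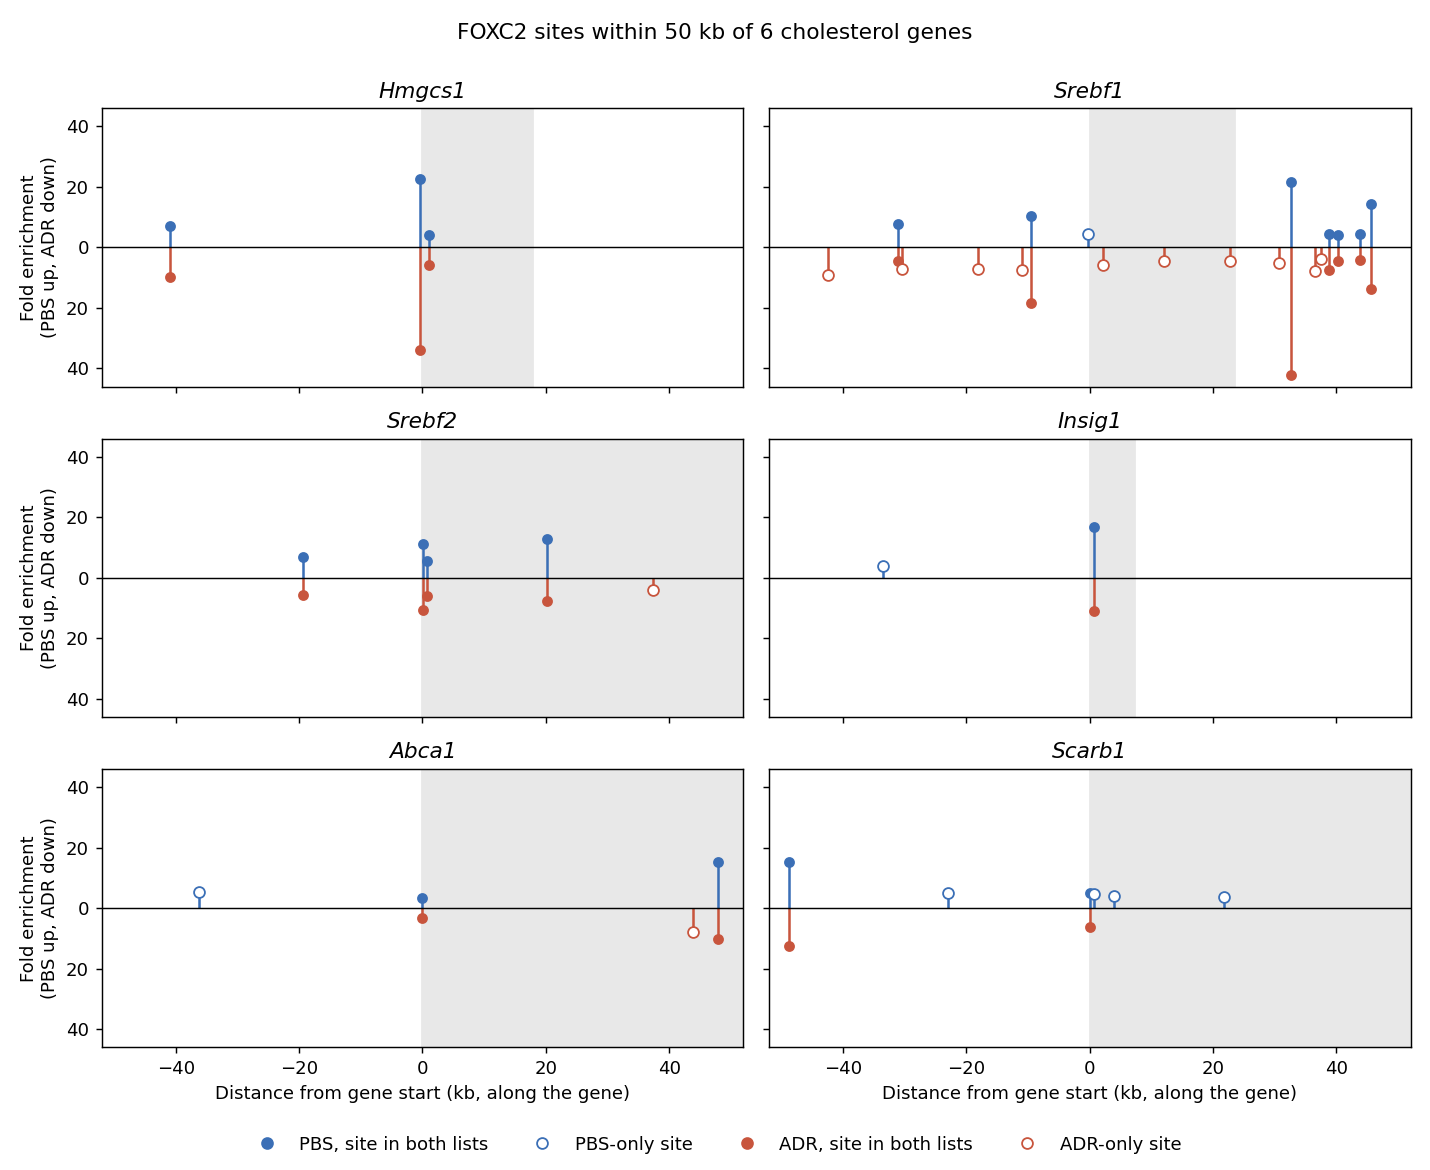
FOXC2 sites around the 6 genes by distance of the summit from the gene start in kb (x axis, positive along the gene) and fold enrichment (y axis, PBS upward in blue, ADR downward in red), with filled points for sites in both lists, open points for sites in 1 list and the gene body shaded up to 52 kb. The start of Hmgcs1 and the site 32.7 kb into the Srebf1 window have the highest folds, and 10 open ADR points spread over the whole Srebf1 window.

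Hmgcs1 codes for cytosolic HMG-CoA synthase, which makes the substrate of the rate-limiting step of cholesterol synthesis. Its start carried the strongest site at any of the 6 starts, chr13:119689803-119690602, with a fold of 22.7 in PBS and 34.1 in ADR. These folds rank at 94.2% and 97.6% of their lists, and the −log10 q was 114 and 125. The summit lay 321 bp before the gene start. The printed stretch holds the sterol element TCACCCCAC 161 bp before the start, 160 bp from the summit. NF-Y matches lay 202, 263 and 294 bp before the start and a WT1 match 339 bp before it. The RefSeq promoter of Hmgcs1, 250 bases before to 50 after its start, held 1 sterol element and 4 NF-Y matches. Over all 32851 RefSeq promoters, 1.24% held the element and 37.4% an NF-Y match.

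The other Hmgcs1 sites were weaker. A site in an intron 1.00 kb into the gene had a fold of 4.25 in PBS and 5.66 in ADR. A site 40.9 kb upstream, in a promoter of the chemokine gene Ccl28, had folds of 7.05 and 9.66. The 3 sites were all in both lists and all higher in ADR, by 0.41 to 0.58 on the log2 scale, differences that have no replicate to be set against.

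Srebf1, the gene for SREBP-1, had the most peaks of the members, 10 in PBS and 17 in ADR. Counted as sites there were 8 with a PBS peak and 17 with an ADR peak, because 1 broad site was called as 3 PBS peaks and 1 ADR peak. No other coding gene has its record start in the window, but a further transcript start of Tom1l2 lies there, and Srebf1 itself fills little of it. Of the 18 sites, 6 lay upstream inside Tom1l2, a gene for an endosomal trafficking protein, 8 lay past the 3′ end inside Rai1, a gene for a chromatin-associated regulator, and 4 lay between 0.365 kb before the first start and the end of Srebf1.

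The 4 sites at Srebf1 itself were each in 1 list alone and had low folds. The first start, at 60222581 on the minus strand of chromosome 11, had a PBS-only site, chr11:60222817-60223023, with a fold of 4.46 and its summit 365 bp upstream. Its sequence holds the sterol element TCACCCCAC 282 bp and the E-box CACGTG 328 bp upstream. It was the only one of the 38 member sites with the element within 100 bp of the summit. RefSeq gives 2 further starts, and Srebf1 is known to make the SREBP-1a and SREBP-1c proteins from separate first exons, which the RefSeq table used here does not assign to its starts. The start 1.95 kb into the gene was covered by an ADR-only site of fold 5.83 (chr11:60220290-60220656), and the start 12.1 kb in was covered by an ADR-only site of fold 4.46 (chr11:60210357-60210639). Thus a site overlapped the promoter window of each of the 3 RefSeq starts, PBS only at the first and ADR only at the others. At the first, only the edge of the site reached the window, and its nearest base lay 236 bp from the start. These were weak calls in 1 list each, and a change of start between conditions was not tested. The last of the 4, at the end of the transcript, was ADR only with a fold of 4.32. These folds rank between 9.46% and 32.8% of their lists.

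Past the end of Srebf1, the site with the highest ADR fold of all members (chr11:60189314-60190268) lay in coding sequence of Rai1, 32.7 kb from the Srebf1 start. Its fold was 21.8 in PBS and 42.1 in ADR, and its −log10 q was 68.0 and 160. In ADR it ranked at 99.4% of the list, in PBS at 93.5%. The log2 difference of 0.95 was the largest of the 19 shared member sites. Of the other 7 sites in Rai1, 4 were in both lists and 3 in ADR only, with folds of 3.68, 4.99 and 7.88. The broad intronic site chr11:60175276-60177609 had folds of 14.4 in PBS and 13.8 in ADR, and the 3 remaining shared sites had PBS folds of 4.23 to 4.46 and ADR folds of 4.21 to 7.34.

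Upstream in Tom1l2, 2 sites were in both lists and 4 in ADR only. The site 9.59 kb before the start, in a promoter of Tom1l2, had a fold of 10.4 in PBS and 18.5 in ADR, a log2 difference of 0.83. The site 31.1 kb before the start went the other way, with 7.80 in PBS and 4.65 in ADR, and an ADR-only site of fold 7.10 lay beside it, 30.4 kb before the start. The remaining ADR-only sites had folds of 7.20 (18.1 kb upstream), 7.31 (10.9 kb upstream) and 9.11 (42.4 kb upstream). The one 18.1 kb upstream, in a promoter of Gm12265, had the forkhead match nearest to a summit, TGTTTAC at 6 bp. Over the 10 ADR-only sites of Srebf1 the median fold was 6.46 (3.68 to 9.11), against 5.96 over all ADR-only sites of the genome.

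Srebf2, the gene for SREBP-2, the main activator of cholesterol synthesis genes, had 4 PBS and 5 ADR peaks. The site over its start, chr15:82146856-82147683, had a fold of 11.2 in PBS and 10.5 in ADR, and the neighbouring site 716 bp into the gene had 5.53 and 5.83. The strongest PBS site was intronic, 20.2 kb into the gene, with 12.9 in PBS and 7.69 in ADR, a log2 difference of -0.74, and its printed window holds the forkhead match TGTTTGT. A site in the promoter of Ccdc134, 19.3 kb upstream, had folds of 6.78 and 5.69. The extra ADR peak, 37.4 kb into the gene, had a fold of 3.997 and ranked at 5.86% of the ADR list. Its nearest coding start was that of Shisa8.

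Insig1 had 2 peaks in each list, but both ADR peaks overlapped the same 1 PBS peak. The site over its start and first intron (chr5:28070995-28072203) was 1 peak in PBS and 2 in ADR, with a fold of 16.9 in PBS and 10.9 in ADR, a log2 difference of -0.63. The window around its summit, 642 bp into the gene, holds 3 NF-Y matches, and the annotation also places a promoter of the non-coding gene Gm26608 there. The second PBS peak, 33.6 kb upstream, had a fold of 3.80 and no ADR partner. At the strongest PBS sites of Srebf2 and Insig1 the fold was therefore lower in ADR. At the Hmgcs1 start and at the strongest site of the Srebf1 window (21.8 in PBS and 42.1 in ADR) it was higher. The Srebf2 start differed little, with a log2 difference of -0.09. None of these differences has a replicate to be set against. Picking a site by a high fold in 1 list also favours a lower fold in the other, and this was not tested.

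Abca1 codes for the transporter that loads cholesterol onto lipid-poor apolipoprotein A-I. It had 3 peaks in each list. The site at its start, chr4:53159850-53160159, was among the weakest peaks of both lists, with a fold of 3.57 in PBS and 3.06 in ADR, at ranks of 3.48% and 0.774%. Its window holds a forkhead match, ATAAACA, 114 bp and an E-box 144 bp before the start. The strongest Abca1 site was 47.9 kb into the gene, in an intron, with 15.3 in PBS and 10.3 in ADR, a log2 difference of -0.57, and it also holds ATAAACA and a WT1 match. An ADR-only intron site 43.9 kb into the gene had a fold of 7.74, and an intergenic PBS-only site 36.3 kb upstream had 5.38.

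Scarb1 codes for SR-BI, the receptor that takes up cholesterol from high-density lipoprotein. It was the one member with fewer ADR peaks, 6 in PBS and 3 in ADR. The site over its start (chr5:125340789-125341221) was in both lists, with a fold of 5.23 in PBS and 6.10 in ADR, and its upstream side holds WT1 matches 28 and 53 bp before the start. The 4 PBS-only sites, 629 bp, 3.90 kb and 21.7 kb into the gene and 23.0 kb upstream, had folds of 3.77 to 4.98. At a fold of at least 5 the peak numbers of Scarb1 were 2 and 2, as a weak ADR peak also fell below that fold. Counted as sites, Scarb1 had 6 with a PBS peak and 2 with an ADR peak.

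**Figure D2:**
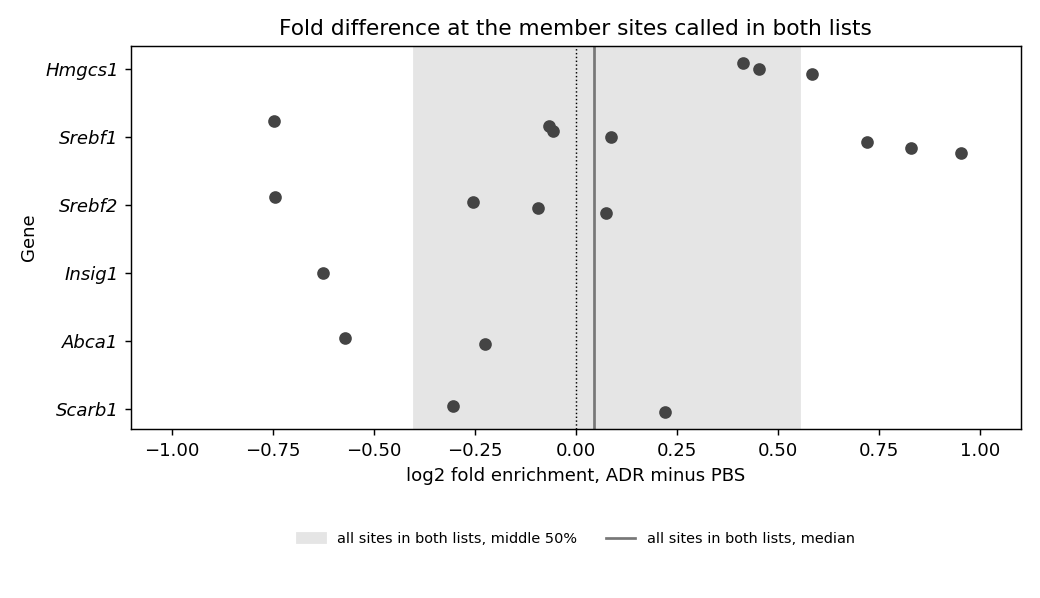
Log2 fold enrichment in ADR minus PBS (x axis) at the 19 member sites called in both lists, 1 point per site, by gene (y axis), with the median (grey line) and the middle 50% (shaded) of all 26703 sites in both lists. The Hmgcs1 points lie to the right, the Insig1 and Abca1 points to the left, and the Srebf1 points on both sides.

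Over the 19 shared member sites, 9 had a higher fold in ADR (47.4%, 27.3 to 68.3), against 52.6% of the shared sites of the genome. Their median log2 difference was -0.06 (exact interval of the median -0.30 to 0.45). That interval treats the 19 sites as independent and gives no error for a difference between conditions. Over all 26703 shared sites the median was 0.05, with quartiles of -0.40 and 0.55. The 7 sites of Srebf1 had a median of 0.09 and the 12 of the other genes -0.16. The 7 PBS-only member sites had a median fold of 4.46, against 4.98 over all PBS-only sites.

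By position, 16 of the 38 sites were in promoters (from 1 kb before to 100 bp after any transcript start), 14 in introns, 5 in exons, 2 at transcript ends and 1 between genes. Of the promoter sites 10 were in both lists, 2 in PBS only and 4 in ADR only. The GC content of the 201-base windows had a median of 56.2% at the member sites and 53.7% at all sites.

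**Figure D3:**
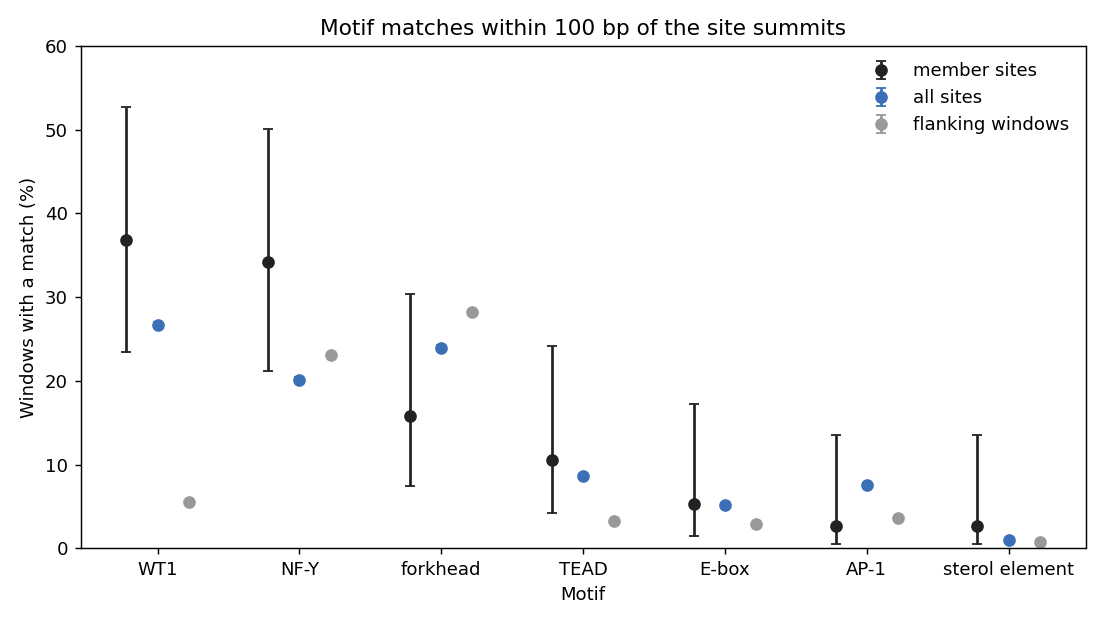
Share of windows with an exact motif match within 100 bp of the summit (y axis, percent) for 7 motifs (x axis) at the 38 member sites, all 53255 sites and flanking windows 1 kb to either side, with 95% Wilson intervals as bars. The WT1 motif is in 36.8% of member windows, 26.7% of all sites and 5.50% of flanking windows. The forkhead motif is in 15.8%, 23.9% and 28.2%. The flanking windows are those of all sites, not of the members alone.

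More member sites held a WT1 or an NF-Y match than a forkhead match. The WT1 motif was in 14 of the 38 windows (36.8%, 23.4 to 52.7), against 26.7% of all sites and 5.50% of the flanking windows of all sites. Among all sites in both lists it was in 33.3%. NF-Y CCAAT was in 13 (34.2%, 21.2 to 50.1), against 20.1% of all sites and 23.0% of flanking windows. Among RefSeq promoters it was in 37.4%. The forkhead motif was in 6 (15.8%, 7.44 to 30.4), against 23.9% of all sites and 28.2% of flanking windows. Among ADR-only sites of the genome 36.7% held it, and at the ADR-only sites of Srebf1 it was 2 of 10 (5.67 to 51.0%). NF-Y was in 5 and WT1 in 3 of those 10.

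The TEAD motif (ACATTCCA or ACATTCCT or GCATTCCA or GCATTCCT) was in 4 windows (10.5%, against 8.58% of all sites). All 4 belonged to sites counted for Srebf1 that lay inside Tom1l2 or Rai1. AP-1 (TGACTCA or TGAGTCA) was in 1 window (2.63%, against 7.57%) and the E-box in 2 (5.26%, against 5.11%). The sterol element was in 1 (2.63%, against 0.96%), and the LXR motif, 2 copies of AGGTCA in the same direction with 4 bases between, was in 0 of 38, as in nearly all windows (0.01%). A missing match says only that these letters are not in the window. The exact LXR letters are so rare that 0 of 38 could not show whether LXR elements were absent. Elements that differ from these letters were not searched for.

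**Figure D4:**
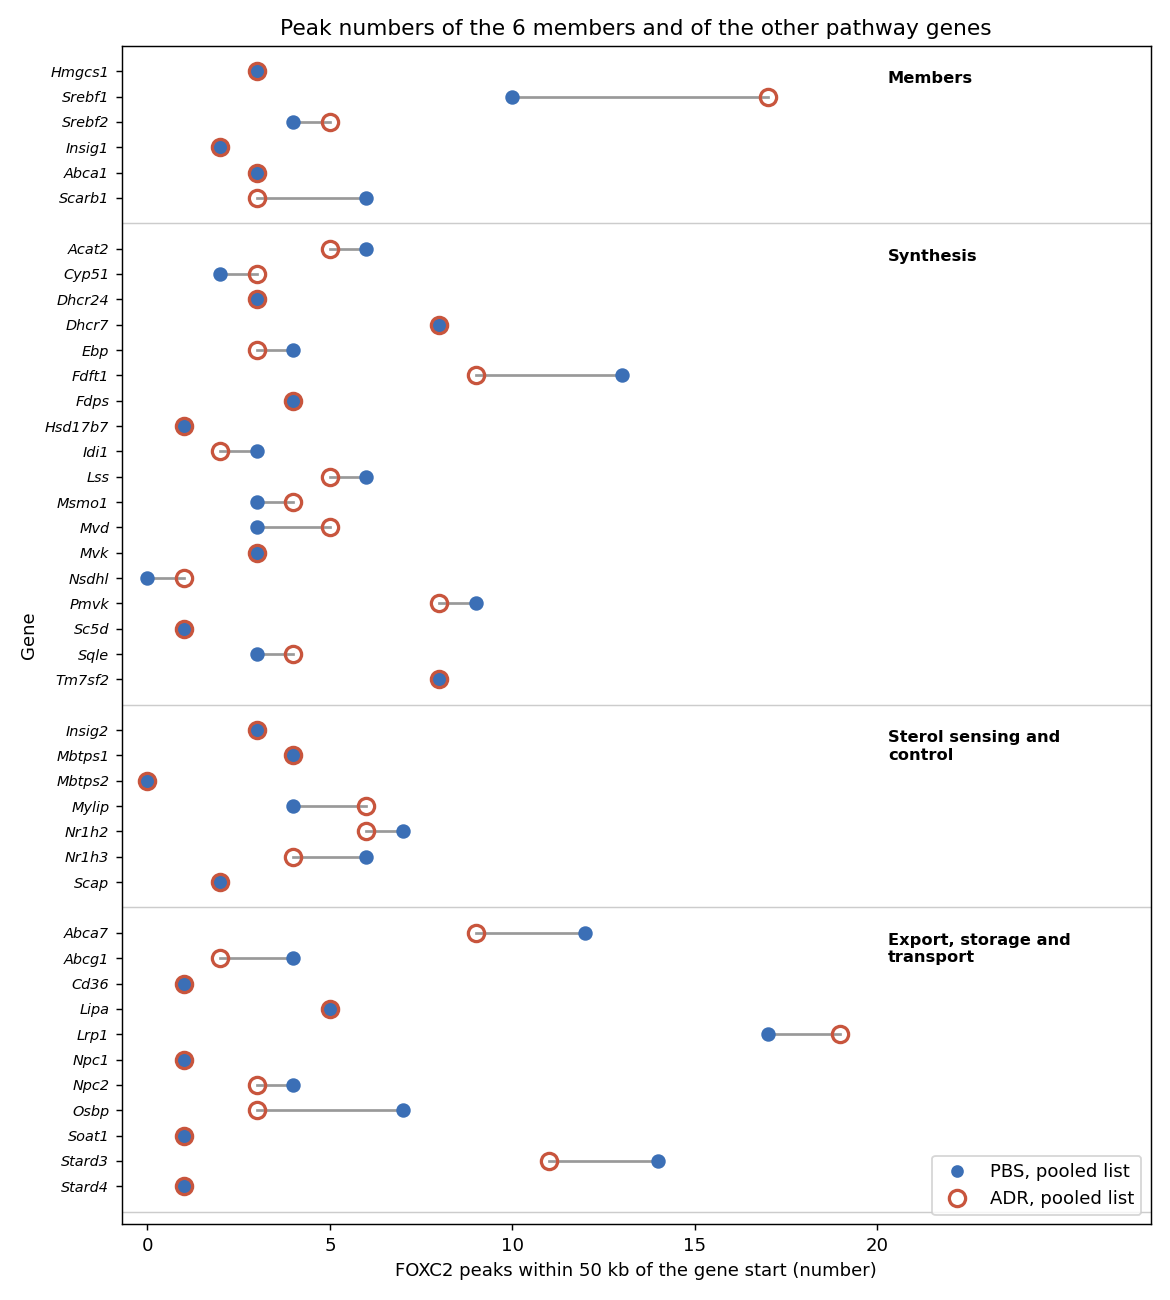
FOXC2 peak number in the 50 kb to either side of each gene start (x axis) in the pooled PBS (filled blue) and ADR (open red) lists for the 6 members and 36 other genes of the pathway (y axis), grouped by role. Srebf1, with 10 and 17, is the widest pair.

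Srebf1 was selected on earlier results of these lists, and most sites of its window lay inside Tom1l2 and Rai1. No other gene of the pathway lists had a difference in peak number within 50 kb as large as that of Srebf1. Of these 36 genes, 7 had more ADR peaks, 13 fewer and 16 the same, with 173 PBS and 158 ADR peaks in all, and 29 had a peak within 1 kb of the start in each list. Among 18 synthesis genes, 5 had more and 6 fewer ADR peaks (80 and 77 peaks). Mvd, the mevalonate diphosphate decarboxylase, went from 3 to 5 and Fdft1, squalene synthase, from 13 to 9. Dhcr7, which codes for a late enzyme of cholesterol synthesis, had 8 in each, with top folds of 39.8 in PBS and 45.6 in ADR.

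Among 7 genes of sterol sensing, 1 had more and 2 fewer ADR peaks (26 and 25 peaks), and Mbtps2, a protease that cuts SREBP, had none in either list. Mylip, a ubiquitin ligase induced by LXR, had 4 and 6. Among 11 genes of export, storage and transport, 1 had more and 5 fewer (67 and 56 peaks). That one was Lrp1, a lipoprotein receptor, with 17 and 19 peaks and top folds of 71.8 and 38.0. The oxysterol-binding protein gene Osbp had 7 and 3, and Stard3, a cholesterol transfer protein gene, 14 and 11. The lipid transporter gene Abca7 had the same difference as Stard3, with 12 and 9.

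Peaks also lay just outside the 50 kb limit. At Srebf1 the farthest PBS peak inside was 46.9 kb away with a fold of 8.33, and the nearest outside 50.6 kb away with 14.0. In ADR they were at 45.0 kb with 13.8 and at 50.7 kb with 5.75. The difference of 7 at Srebf1 depended on the window and on the weak peaks: it was 0 within 10 kb (2 and 2 peaks) and 0 among the 20000 peaks of smallest q in each list (6 and 6), 4 at a fold of at least 5 (6 and 10) and 13 within 100 kb (17 and 30).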

How the data were processed

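FOXC2 ChIP-seq was carried out on sorted podocytes, with 3 samples per condition. Per the study's methods, reads were aligned to GRCm38 (the build in the submitters' processing notes) and narrow peaks were called by the authors, and the deposited lists are described as pooled by condition, although their peak names carry the label of 1 sample. The fold enrichment, a ratio over the local control background, and the −log10 q value are the authors' own, as deposited. The score, p and name columns were not used, and 0 columns of other samples were present. Read depth is unknown, so values carry no depth-based error.

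Genes came from GENCODE M21, sequence from GRCm38.p6 and promoters from RefSeq, in which 5 of the 6 genes had an entry (not Scarb1). Peaks were merged at 1 bp of overlap. A site's fold is the highest of its peaks. Motifs were searched as exact strings within 100 bp of summits. Promoters were annotated first, then transcript ends, exons and introns. Python 3.11.15, NumPy 2.4.6, pandas 2.3.3, SciPy 1.17.1 and matplotlib 3.10.9 were used, and overlap and motif counts were tested on simulated data. Intervals of shares are 95% Wilson intervals, and that of the median log2 difference is an exact 95% interval from the ranks of the sites.

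The members and gene lists were chosen with earlier results of these data known. All member sites are described except 1 shared site of the Scarb1 window, which enters the counts but is not reported singly here. From the pathway lists, the genes named are the 3 largest and 3 smallest differences in peak number and the 3 highest folds, and genes of a neighbouring start or body are named where a member site lay there. Mbtps2 was named after its values were seen, as were the sequences at the Hmgcs1 and Scarb1 starts. Windows, thresholds, overlap rules, motif width and the set of genes were varied, the last after seeing the data.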

Additional observations from a re-analysis of the deposited data

How the results depend on the processing

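The member peaks numbered 28 in PBS and 33 in ADR. Within 10 kb they numbered 11 and 10, within 100 kb 53 and 61, among the 20000 peaks of smallest q in each list 13 and 13, and without Srebf1, an alternative chosen after seeing the data, 18 and 16. At a fold of at least 5 they numbered 17 and 23. The share of member PBS peaks overlapping an ADR peak, 75.0%, became 88.2% at a fold of at least 5 and 92.3% among the 20000 peaks. It was 57.1% where the overlap had to cover 50% of both peaks, and 67.9% for summits within 200 bp. The share of ADR peaks overlapping a PBS peak, 63.6%, became 90.0% within 10 kb and 87.5% without Srebf1. By the same stricter overlap rules it was 48.5% and 57.6%. The shares over all peaks under these thresholds, windows and overlap rules are not given here. These shifts can therefore not be called particular to the members. The number of members with more ADR peaks, 2, became 1 within 10 kb, 4 within 100 kb, 1 by nearest coding start, 0 among the 20000 peaks and 1 without Srebf1. The forkhead share, 15.8%, was 5.26% within 50 bp of the summit. The median log2 difference ranged from -0.16 to 0.15 over its alternatives, inside its interval but on both sides of 0. The Scarb1 difference of -3 was -8 within 100 kb and 0 at a fold of at least 5. No paired analysis was possible because only 1 list was deposited for each condition, and no sample could be left out for the same reason. The lists hold called peaks only, so a site absent from 1 list has no value there, and the unknown read depth leaves its absence without a limit.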
